A study of Mus musculus with 24 samples.

Results

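The 8 genes described here belong to the Wnt pathway: Axin2, Ctnnb1, Gsk3b, Lef1, Tcf7, Tcf7l1, Tcf7l2 and Sp5, out of 21900 protein-coding mouse genes. They were taken by name, and every listed ChIP-seq peak whose midpoint lay inside the gene's mm10 span or within 20 kb of it was assigned to the gene. That gave 313 of the 246925 peaks in 16 lists. The lists came from V6.5 mouse embryonic stem cells (strain C57BL/6-129, labelled E3.5), with antibodies against the pluripotency factors Klf4, Oct4 and Sox2 and against H3K27ac, histone H3 acetylated at lysine 27, a mark of active promoters and enhancers. Mitotic cells, shaken off after 7 h of nocodazole (given in the labels as 100 ug/ml), gave 3 Klf4, 2 Oct4, 2 Sox2 and 2 H3K27ac libraries. Asynchronous cells, growing without nocodazole, gave 3 Klf4, 1 Oct4, 1 Sox2 and 2 H3K27ac libraries.

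The groups shared a culture history that bears on this pathway. Per the labels, the cells were kept on irradiated feeders with LIF and serum, and were then expanded on gelatin for at least 2 passages in 2i, a MEK inhibitor (PD98059) and an inhibitor of Gsk3 (Chir99021), before synchronization. The asynchronous cells therefore show these genes under Gsk3 inhibition, and no group here lacked the inhibitor. Nothing in the labels says that replicate libraries came from separate cultures, so the p-values measure the spread between libraries, which may be technical.

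In canonical Wnt signalling, a destruction complex built on Axin proteins and containing the kinase Gsk3 marks β-catenin, the product of Ctnnb1, for breakdown. Wnt ligands, or a Gsk3 inhibitor, let β-catenin build up and enter the nucleus, where it binds the Tcf and Lef proteins on DNA. In mouse embryonic stem cells Tcf7l1 (also called Tcf3) is known as a repressor that occupies many sites together with Oct4 and Sox2 and restrains pluripotency genes, and β-catenin relieves that repression. Axin2 and Sp5 are classical targets that β-catenin switches on and that feed back on the pathway.

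The promoters of 5 of the genes are printed because the Klf4 lists divide them: the Tcf7l1 promoter had Klf4 peaks in asynchronous cells and none in mitotic cells, those of Ctnnb1 and Gsk3b had them in both states, that of Tcf7l2 had them in 1 mitotic library, and that of Sp5 had none in either. Each runs 5′ to 3′ on the strand of the gene and ends at the base before the annotated span (RefSeq, GRCm38.p6, the assembly of mm10). Capitals mark exact matches, on either strand, to the letters GGGNGTG (a Klf site), CTTTGAT (Tcf and Lef), ATGCAAA (Oct) or CATTGT (Sox).
Tcf7l1, minus strand, chr6:72789046-72789295: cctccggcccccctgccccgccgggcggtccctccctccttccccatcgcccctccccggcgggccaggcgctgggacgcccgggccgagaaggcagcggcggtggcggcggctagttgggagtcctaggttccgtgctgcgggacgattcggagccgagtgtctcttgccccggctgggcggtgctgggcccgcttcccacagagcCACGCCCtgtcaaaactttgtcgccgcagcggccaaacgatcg
Ctnnb1, plus strand, chr9:120933150-120933399: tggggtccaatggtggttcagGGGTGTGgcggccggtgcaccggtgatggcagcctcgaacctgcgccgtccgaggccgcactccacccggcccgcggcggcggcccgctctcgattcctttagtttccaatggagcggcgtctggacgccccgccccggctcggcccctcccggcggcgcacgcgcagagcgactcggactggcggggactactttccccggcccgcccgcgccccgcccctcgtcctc
Gsk3b, plus strand, chr16:38088751-38089000: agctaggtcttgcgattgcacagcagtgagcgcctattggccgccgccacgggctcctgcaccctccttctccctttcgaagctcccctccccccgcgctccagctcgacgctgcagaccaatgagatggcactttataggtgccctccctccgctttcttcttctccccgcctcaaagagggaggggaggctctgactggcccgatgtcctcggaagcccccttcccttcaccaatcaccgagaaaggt
Tcf7l2, plus strand, chr19:55741560-55741796: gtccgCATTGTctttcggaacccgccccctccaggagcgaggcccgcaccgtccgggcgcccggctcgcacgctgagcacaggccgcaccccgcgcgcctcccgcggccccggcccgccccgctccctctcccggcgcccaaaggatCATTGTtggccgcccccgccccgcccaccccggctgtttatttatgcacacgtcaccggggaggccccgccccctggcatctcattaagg
Sp5, plus strand, chr2:70474673-70474922: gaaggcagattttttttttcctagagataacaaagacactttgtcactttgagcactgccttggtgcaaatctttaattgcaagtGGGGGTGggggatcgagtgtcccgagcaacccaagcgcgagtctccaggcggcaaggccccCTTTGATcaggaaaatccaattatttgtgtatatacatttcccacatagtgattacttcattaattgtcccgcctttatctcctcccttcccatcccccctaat

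The Tcf7l1 stretch held 1 Klf match, from 43 to 37 bp before the start site, and the Ctnnb1 stretch held 1, from 229 to 223 bp before it. The Gsk3b stretch held no match to any of the 4 motifs, although its 300-base window, which runs past the start, held 1 Klf match just after the start. The Tcf7l2 stretch held 2 Sox matches and no Klf match. Sp5 was the only one of the 5 with a Tcf and Lef match, from 104 to 98 bp before the start, and it also held 1 Klf match. Over 21263 promoter windows of 300 bases (250 before a start and 50 after), 3.22% held the Tcf and Lef letters, 31.7% the Klf letters, 4.23% the Oct letters and 11.0% the Sox letters. A match is a description of these letters and no evidence of binding.

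The lists differed in length between libraries, which bears on every count below. The Klf4 lists had between 3795 and 8438 entries in mitotic cells and between 10575 and 21307 in asynchronous cells. The Oct4 lists had 1246 and 5282 entries in mitotic cells and 3347 in asynchronous cells, and the Sox2 lists 4537 and 1940 in mitotic cells and 2986 in asynchronous cells. The H3K27ac lists had 36526 and 30771 entries in mitotic cells, against 47475 and 46491 in asynchronous cells. Read depth is not in the lists, so the depth behind a peak is unknown, and a gene without a peak cannot be called unbound. Of 8 stem cell markers (Nanog, Pou5f1, Sox2, Esrrb, Zfp42, Tfcp2l1, Klf2 and Tdgf1), 8 had an asynchronous H3K27ac region within 20 kb, as did 3 of 8 feeder fibroblast markers and 5 of 5 neural progenitor markers. Of all protein-coding genes 69.6% had such a region, so these counts are descriptions and cannot show which cells were present.

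Klf4 was listed less often at these genes in mitotic than in asynchronous cells. The mitotic libraries had 5, 3 and 9 Klf4 peaks at the 8 genes (5.67 ± 3.06, SD, n = 3), and the asynchronous libraries had 12, 27 and 22 (20.3 ± 7.64, SD, n = 3). The groups did not overlap. The difference of -14.7 peaks had an exact permutation p of 0.1 (two-sided), the smallest that 3 libraries against 3 allow. Per 1000 listed peaks the values were 0.869, 0.791 and 1.07 in mitotic libraries, against 1.13, 1.27 and 1.34 in asynchronous libraries (exact permutation p = 0.1), also without overlap. The submitters' titles carry a prefix whose meaning the labels do not give, and within the one prefix with a Klf4 library of each state, the counts were 9 in the mitotic and 22 in the asynchronous library. When the strongest peaks of every list were taken up to the length of the shortest one, the difference was -1 (exact permutation p = 0.8).

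Peak totals of Oct4 and Sox2 overlapped between the states, and those of H3K27ac were lower in both mitotic libraries. Per 1000 listed peaks Sox2 again overlapped, but Oct4 was lower in both mitotic libraries and H3K27ac overlapped. Oct4 had 1 and 7 peaks in mitotic libraries and 6 in the asynchronous one, a difference of -2 that was 1 without mitotic library 1. Sox2 had 6 and 4 peaks in mitotic libraries and 5 in the asynchronous one, a difference of 0. Both had an exact permutation p of 1, and 0.333 is the smallest that 2 libraries against 1 allow. Per 1000 listed peaks Oct4 had 0.803 and 1.33 in mitotic libraries, both below 1.79 in the asynchronous one, and Sox2 had 1.32 and 2.06 in mitotic libraries and 1.67 in the asynchronous one. The Oct4 mitotic libraries are numbered by their labels, while the peak names inside their lists carry the opposite numbers, so which is library 1 and which is library 2 is uncertain throughout. H3K27ac had 48 and 35 peaks in mitotic libraries (41.5 ± 9.19, SD, n = 2) and 66 and 57 in asynchronous libraries (61.5 ± 6.36, SD, n = 2). That difference of -20 had an exact permutation p of 0.333, the smallest possible with 2 against 2, and was -0.5 with lists of equal length. Tcf7l1 alone differed by -16, so the total rests largely on this gene. Ctnnb1 differed by 5 and Tcf7 by 0.5 in the other direction, and Axin2 by 0. Per 1000 listed peaks the H3K27ac values overlapped, at 1.31 and 1.14 in mitotic libraries and 1.39 and 1.23 in asynchronous libraries (exact permutation p = 0.667). The title prefixes of the H3K27ac libraries differ between the states, so whatever the prefix stands for and the state cannot be told apart there.

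**Figure D1:**
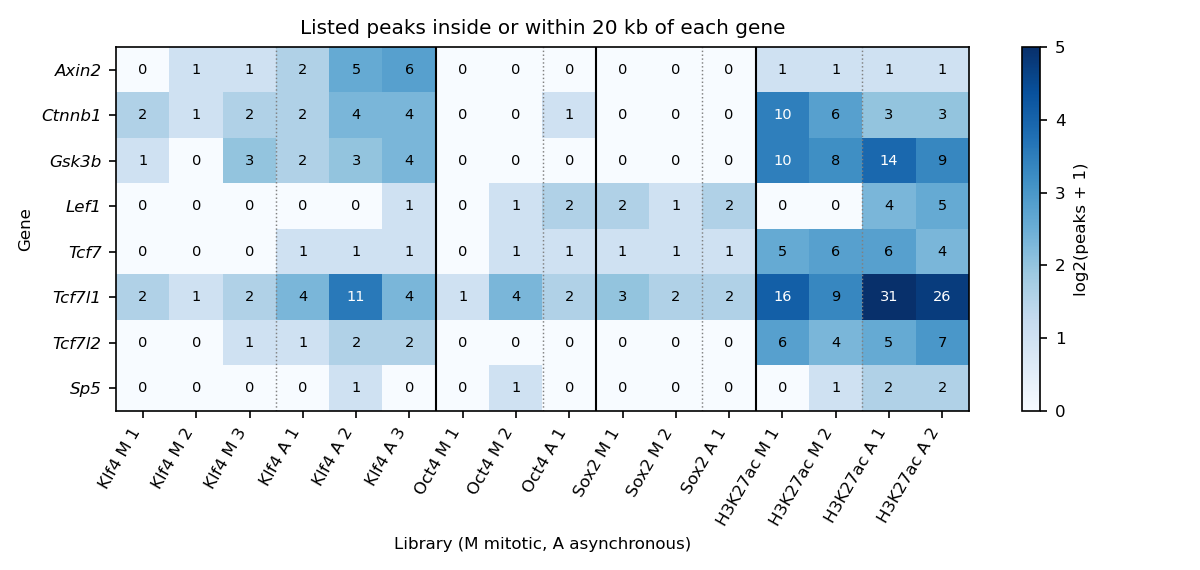
Listed peaks at each of the 8 genes (rows) in each of the 16 libraries (columns, mitotic left of asynchronous within an antibody); numbers are peak counts and shading is log2(peaks + 1). Tcf7l1 has the highest H3K27ac count in the asynchronous libraries, at 31 and 26, Klf4 at Axin2 runs from 0 to 1 in mitotic and from 2 to 6 in asynchronous libraries, and Lef1 has H3K27ac peaks in the asynchronous libraries only.

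Peaks of an antibody that shared at least 1 bp were merged into regions, and an asynchronous region was one with a peak in at least 2 of 3 (Klf4), both (H3K27ac) or the single (Oct4, Sox2) asynchronous library. Such a region is called kept here if at least 2 mitotic libraries listed a peak in it, lost if none did, and intermediate otherwise. Of 17 asynchronous Klf4 regions at the 8 genes, 4 were kept (23.5%, 95% Clopper-Pearson interval 6.81 to 49.9), 4 were intermediate and 9 were lost. Over all 13982 asynchronous Klf4 regions 26.9% were kept, 29.1% intermediate and 44.0% lost, so the kept share at these genes was near the background. Only 2 of 17 (11.8%) were kept without mitotic library 1, and likewise without mitotic library 3. None of 11 was kept among peaks with a -log10 q of at least 5. The share over all Klf4 regions is not given at these settings, so these values have no background beside them.

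Of 6 asynchronous Oct4 regions, 1 was kept, 2 were intermediate and 3 were lost, beside 24.6%, 39.3% and 36.2% of all 3338. Without mitotic library 1, which listed 1246 peaks, the kept share of Oct4 regions was 50% in place of 16.7%. With 1 mitotic library left, a peak in that library alone counted as kept, which is a looser rule. Of 5 asynchronous Sox2 regions, 3 were kept, 2 were intermediate and none was lost, beside 40.9%, 30.6% and 28.4% of all 2972. Without Sox2 mitotic library 2 the kept share was 100% in place of 60%, under the same looser rule. Of 38 asynchronous H3K27ac regions, 15 were kept (39.5%, interval 24.0 to 56.6), 8 were intermediate and 15 were lost, beside 46.1%, 14.5% and 39.4% of all 32482. When the lists of both states were shortened to the shortest one, 15 of 25 (60%) were kept. The share of all H3K27ac regions at that length is not given. A further 5 of 79 merged H3K27ac regions had a peak in both mitotic libraries and in no asynchronous one, beside 9.53% of all merged regions. No merged factor region at the genes did so in 2 mitotic libraries (0 of 37 Klf4, 0 of 10 Oct4 and 0 of 7 Sox2 regions), beside 0.329% of all Klf4, 4.45% of all Oct4 and 7.45% of all Sox2 regions. These intervals cover counting error only.

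**Figure D2:**
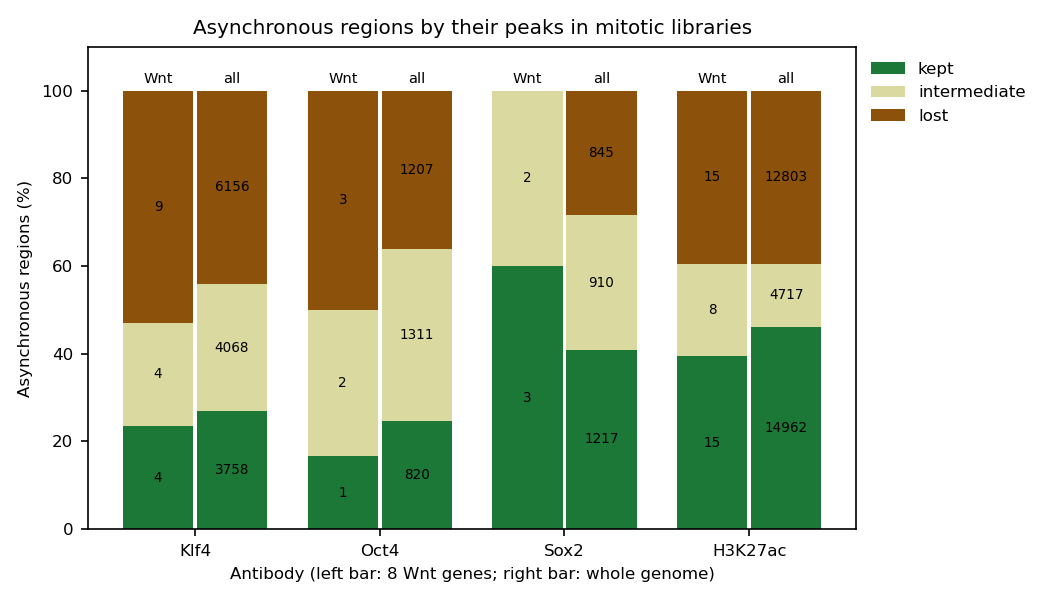
Asynchronous regions of each antibody (y axis, percent) by whether at least 2 (kept), some (intermediate) or no (lost) mitotic libraries listed a peak in them; left bars are the 8 Wnt genes and right bars all regions, with the number of regions written in each segment. The bars at the Wnt genes rest on 17, 6, 5 and 38 regions, and 4, 1, 3 and 15 of these were kept for Klf4, Oct4, Sox2 and H3K27ac.

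An asynchronous region lay within 20 kb of 6 of the 8 genes for Klf4 (50.6% of all protein-coding genes), 4 for Oct4 (13.6%), and 3 for Sox2 (10.9%), and an H3K27ac one lay near all 8 (69.6%). The gene spans had a median length of 75.5 kb, against 17.1 kb for all protein-coding genes, and a longer span takes in more peaks. Of the 6 genes with Klf4, 3 had a kept region (Ctnnb1, Gsk3b and Tcf7l1), beside 43.2% of all genes with an asynchronous Klf4 region. Of the 4 with Oct4, 1 did (Tcf7l1), beside 24.4%, and of the 3 with Sox2 all 3 did (Lef1, Tcf7 and Tcf7l1), beside 40.8%. H3K27ac was kept at 6 of the 8, beside 80.4%, and the exceptions were Lef1 and Sp5. Tcf7l1 was the only one of the 8 genes with a kept region of every antibody.

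Axin2, a scaffold of the destruction complex, had its asynchronous Klf4 regions upstream of the annotated span. Its H3K27ac region lay at an annotated start site inside the span. Its Klf4 peaks numbered 0, 1 and 1 in mitotic libraries and 2, 5 and 6 in asynchronous libraries, without overlap. Such a split, with every mitotic library below every asynchronous one, held at Axin2, Tcf7 and Tcf7l1 (3 of 8 genes) and at 15.7% of 14804 genes with a Klf4 peak. The 4 asynchronous Klf4 regions lay between 5.40 and 7.97 kb before the 5′ end of the annotated span. In the strongest, chr11:108910957-108911354, the deposited fold enrichment was 5.84 in mitotic library 3, with no peak in mitotic libraries 1 and 2, against 3.94, 5.13 and 10.7 in the asynchronous libraries. The other 3 had no mitotic peak. None of the 4 overlapped an asynchronous region of another antibody. Single-library Klf4 peaks did overlap the H3K27ac region inside the gene: 1 in mitotic library 2 (fold 4.72, its one peak at Axin2) and 1 each in asynchronous libraries 2 and 3 (4.24 and 4.12). These folds, here and below, are the authors' values for a peak in its own list and are not scaled between libraries.

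The H3K27ac region of Axin2 (chr11:108920320-108922143, 3.40 kb into the annotated span) was kept, with folds of 5.52 and 6.05 in mitotic libraries and 21.1 and 20.4 in asynchronous libraries. It covered less length in mitotic cells, 465 to 848 bp in mitotic libraries and 1779 to 1804 bp in asynchronous libraries. The region takes in an annotated start site of Axin2 at position 108920349, 2521 bp into the span. No Oct4 or Sox2 peak was listed at Axin2 in any library.

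Gsk3b, the kinase that the culture inhibitor targets, kept Klf4 at its promoter. The region chr16:38088243-38089816 spans the 5′ end printed above and had folds of 5.63 and 5.56 in mitotic libraries 1 and 3, no peak in mitotic library 2, and 4.39, 2.80 and 6.46 in the asynchronous libraries. The strongest Klf4 region by mean asynchronous fold, chr16:38167987-38168422, lay 79.2 kb into the gene and had a peak in mitotic library 3 (5.81) and asynchronous libraries 1 and 2 (6.46 and 5.19). It overlapped a pair of kept H3K27ac regions that together ran from position 38163503 to 38171716. H3K27ac at the promoter was kept as well, at 10.1 and 8.44 in mitotic libraries and 21.4 and 24.0 in asynchronous libraries. Inside the gene, 2 H3K27ac regions were listed only in the mitotic libraries, and the stronger, chr16:38230421-38232952, had folds of 8.14 and 8.36 there. These last regions are named because of their values. Oct4 and Sox2 had no peak at Gsk3b.

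Ctnnb1, the gene of β-catenin, had the promoter element with the second widest occupancy among the 8 genes. Klf4 peaks there (chr9:120933032-120933574) had folds of 4.81, 4.72 and 4.91 in the 3 mitotic libraries, against 3.47 and 9.30 in asynchronous libraries 2 and 3 and no peak in asynchronous library 1. The Oct4 peak at the same place was listed in the asynchronous library (4.45) and in neither mitotic library. With peaks in 6 of the 12 factor libraries, this element belonged to the 7.47% of 35022 merged factor elements with 6 or more. That place rests on weak peaks, as the Oct4 peak had a -log10 q of 1.97 and the Klf4 peak of mitotic library 2 one of 1.50. Gsk3b and Tcf7 each had an element with peaks in 5 libraries. H3K27ac around the start (chr9:120932789-120937008) was kept, at 10.2 and 9.51 in mitotic libraries and 16.1 and 17.2 in asynchronous libraries.

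Ctnnb1 was also the gene with more H3K27ac in mitotic cells. Its window held 10 and 6 H3K27ac peaks covering 9047 and 8411 bp in mitotic libraries, against 3 and 3 peaks covering 3639 and 2928 bp in asynchronous libraries. At the other 7 genes the covered length was lower in both mitotic libraries than in either asynchronous one. Among 17203 genes with an H3K27ac peak, covered length was higher without overlap in mitotic cells at 22.0% and in asynchronous cells at 53.4%, so both directions are common in these lists. With 2 libraries a state, each such difference has an exact permutation p of 0.333.

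Part of the mitotic length at Ctnnb1 lay far upstream, in a region that was picked out after its values were seen. H3K27ac at chr9:120917669-120920878, 14.1 kb before the 5′ end, had folds of 30.8 and 31.1 in mitotic libraries, against 5.29 and 11.6 in asynchronous libraries. Within their own lists those peaks stood at percentiles 99.6 and 99.6 in mitotic libraries, and 39.6 and 82.0 in asynchronous libraries. A kept Klf4 region (chr9:120919162-120919613) lay inside it, with folds of 4.33 and 6.18 in mitotic libraries 1 and 3 and 5.39 and 4.16 in asynchronous libraries 1 and 2. A second upstream stretch of H3K27ac, chr9:120914691-120915367, was listed in both mitotic libraries (4.65 and 5.19) and in no asynchronous one. The different title prefixes of the states apply to these values too.

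**Figure D3:**
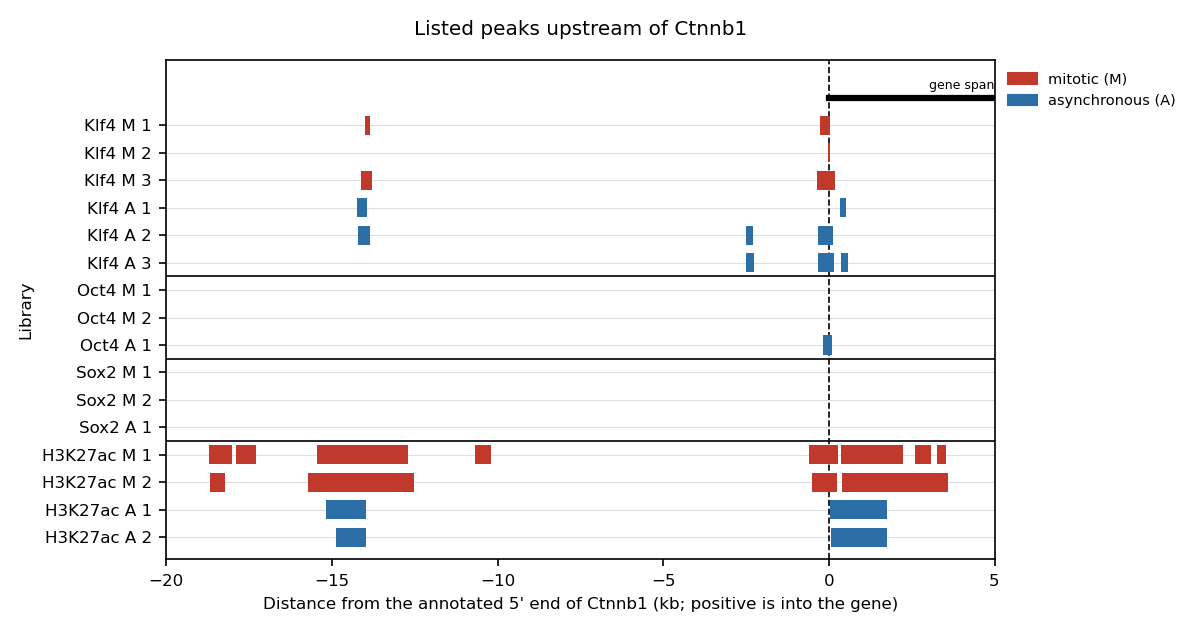
Listed peaks upstream of Ctnnb1 by library, against distance from the annotated 5′ end (kb), mitotic in red and above asynchronous in blue within each antibody. The H3K27ac peaks 14.1 kb upstream are wider in the mitotic rows, and the Klf4 peaks at the 5′ end appear in all 3 mitotic rows and in 2 of 3 asynchronous rows.

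Tcf7l1, the main Tcf repressor of these cells, held 120 of the 313 peaks and the element with the widest occupancy. The element, chr6:72787223-72787852, centres 1.51 kb inside the 5′ end and had a peak in all 12 Klf4, Oct4 and Sox2 libraries. Only 62 of 35022 merged factor elements (0.177%) had this, and of the 44 elements at the 8 genes this was the one. All 12 peaks shared a core of 178 bp, chr6:72787463-72787640. Its sequence was not used here.

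Klf4 folds at this element were 5.19, 6.07 and 4.49 in mitotic libraries and 8.54, 10.4 and 8.47 in asynchronous libraries. Oct4 folds were 7.50 and 8.90 in mitotic libraries and 7.58 in the asynchronous library. Sox2 folds were 12.8 and 10.2 in mitotic libraries and 11.3 in the asynchronous library. Ordered by the deposited -log10 p within its own list, the Sox2 peak had ranks 73 of 4537 and 55 of 1940 in mitotic libraries. In the asynchronous library its rank was 99 of 2986. Klf4 ranks were 1648 of 5754, 372 of 3795 and 2777 of 8438 in mitotic libraries. In asynchronous libraries they were 755 of 10575, 139 of 21307 and 2019 of 16455. Oct4 ranks were 118 of 1246 and 460 of 5282 in mitotic libraries, and 524 of 3347 in the asynchronous one. The Klf4 peaks had -log10 q of 3.67, 3.35 and 5.74 in mitotic libraries and 14.5, 61.2 and 18.5 in asynchronous libraries.

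At the Tcf7l1 promoter, just upstream of that element, no mitotic library listed Klf4. The region chr6:72788893-72789462 covers the printed promoter, and Klf4 folds there were 5.86, 4.48 and 7.16 in asynchronous libraries, with no peak in any of the 3 mitotic libraries. Oct4 and Sox2 had no promoter peak in either state. The promoter and the element lay under the same kept H3K27ac region, chr6:72785998-72790313, with folds of 7.85 and 7.49 in mitotic libraries and 36.0 and 31.5 in asynchronous libraries. Of the 2 Klf4 regions under this acetylated domain, 1 was kept and 1 was lost.

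**Figure D4:**
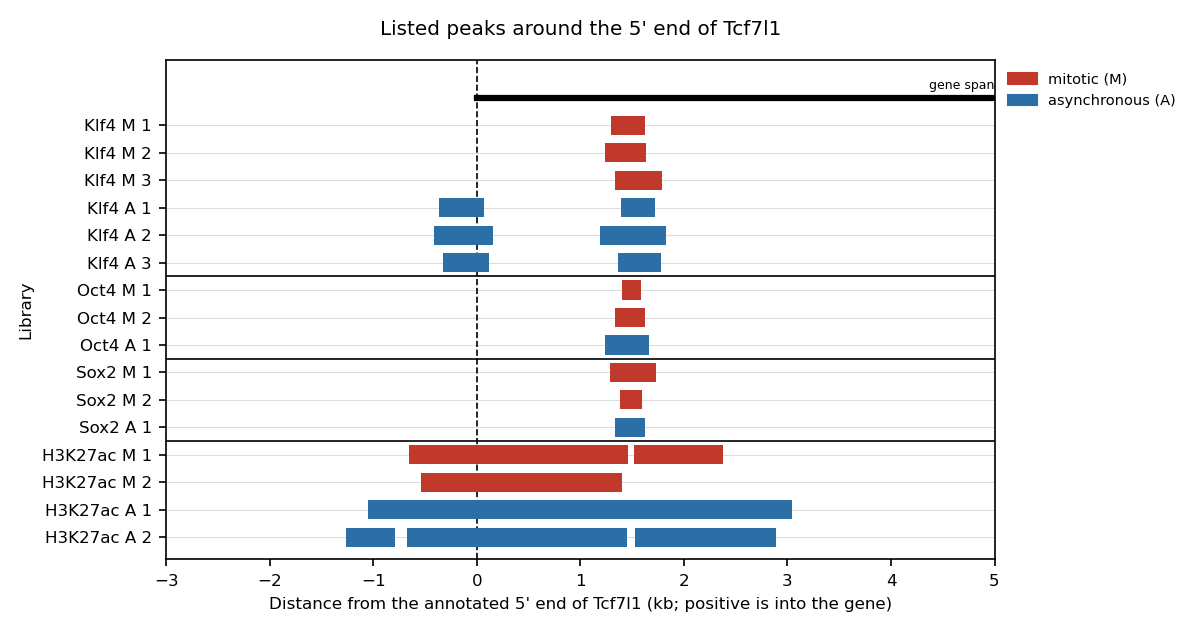
Listed peaks around the 5′ end of Tcf7l1 by library, against distance from that end (kb), mitotic in red and above asynchronous in blue within each antibody. All 12 factor rows have a peak about 1.51 kb inside the gene, while Klf4 peaks at the 5′ end appear in the 3 asynchronous rows and in no mitotic row.

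Elsewhere at Tcf7l1, Klf4 and H3K27ac had more listed peaks in asynchronous cells, and Oct4 and Sox2 did not. Away from the element, 3 Oct4 regions were listed in mitotic library 2 alone, the longest Oct4 list (5282 peaks), and 1 in the asynchronous library alone. For Sox2, 1 region was listed in mitotic library 1 alone and 1 in mitotic library 2 alone. Another Sox2 region, chr6:72677579-72677943, had a fold of 3.56 in mitotic library 1 and of 7.13 in the asynchronous library. A Klf4 region 19.5 kb upstream (chr6:72808371-72808804) had a fold of 7.10 in mitotic library 3 and of 6.39, 6.29 and 6.04 in the asynchronous libraries. Klf4 peaks at the gene numbered 2, 1 and 2 in mitotic libraries and 4, 11 and 4 in asynchronous libraries. H3K27ac peaks numbered 16 and 9 in mitotic libraries and 31 and 26 in asynchronous libraries, and covered 12910 and 9039 bp against 34646 and 25528 bp. Of 17 asynchronous H3K27ac regions at Tcf7l1, 4 were kept, 5 intermediate and 8 lost, beside 46.1%, 14.5% and 39.4% of all 32482. Tcf7l1 thus held 17 of the 38 asynchronous H3K27ac regions at the 8 genes and 8 of the 15 lost ones. One kept region, chr6:72615867-72617657, lay within 1 kb of a neighbouring gene, Tgoln1.

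Tcf7l2, a Tcf family member that can act as an activator or a repressor, had Klf4 at its promoter and no Oct4 or Sox2 peak. The Klf4 region chr19:55741410-55741876 covers the printed stretch, and had a fold of 5.44 in mitotic library 3 alone among mitotic libraries, against 4.62, 3.29 and 7.98 in the asynchronous libraries. H3K27ac was kept just downstream (chr19:55741797-55744460), at 8.43 and 9.51 in mitotic libraries and 15.3 and 18.0 in asynchronous libraries. The H3K27ac region before the start (chr19:55740977-55741741) had no mitotic peak. Covered length was 5.55 to 5.69 kb in mitotic libraries and 8.05 to 8.50 kb in asynchronous libraries.

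Tcf7, known mostly as an activating Tcf, had a Klf4 region and a separate Oct4 and Sox2 element. The Klf4 region at the 5′ end (chr11:52283307-52283572) had folds of 6.16, 3.38 and 4.26 in asynchronous libraries and no peak in mitotic libraries. The Oct4 and Sox2 element lay 3.23 kb upstream by its Oct4 region, chr11:52286368-52286861. Sox2 was kept there, with folds of 4.88 and 6.00 in mitotic libraries and 11.5 in the asynchronous library. Oct4 was listed in mitotic library 2 (4.64) and in the asynchronous library (9.29). No asynchronous H3K27ac region overlapped the element. The strongest H3K27ac region in the Tcf7 window, chr11:52230703-52232976, lay within 1 kb of another gene, Skp1, and the region at the 5′ end of Tcf7 was kept at 4.36 and 5.19 in mitotic libraries and 10.2 and 7.47 in asynchronous libraries.

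Lef1, the remaining member of the family, was the one of the 4 Tcf and Lef genes without H3K27ac peaks in mitotic cells. Its H3K27ac peaks numbered 0 and 0 in mitotic libraries and 4 and 5 in asynchronous libraries, and all 3 asynchronous regions were lost. Folds in the strongest, chr3:131107043-131107613, 2.97 kb upstream, were 4.06 and 5.96 in asynchronous libraries, at percentiles 14.0 and 50.1 of their lists. Sox2 was listed at Lef1 in both states. Its region 34.1 kb into the gene (chr3:131144220-131144525) had folds of 6.04 and 5.72 in mitotic libraries and 4.69 in the asynchronous library. A Sox2 region 7.81 kb upstream (chr3:131102319-131102648) had 3.86 in mitotic library 1 and 5.45 in the asynchronous library, and overlapped an Oct4 region listed in the asynchronous library alone (3.78). The strongest Oct4 region, chr3:131140035-131140442, had 5.82 in mitotic library 2 and 8.14 in the asynchronous library. Klf4 had a single peak, in asynchronous library 3.

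Sp5, a zinc finger factor and a direct Wnt target, had the fewest peaks, 7 in all, and the shortest span. H3K27ac lay over the gene body (chr2:70475734-70477039), with a fold of 3.75 in mitotic library 2 and no peak in mitotic library 1, against 6.03 and 4.64 in asynchronous libraries. A second H3K27ac region 18.6 kb upstream had no mitotic peak. Klf4 was listed once, in asynchronous library 2, and Oct4 once, in mitotic library 2. The printed Sp5 promoter, with its Tcf and Lef letters, overlapped no factor peak.

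**Figure D5:**
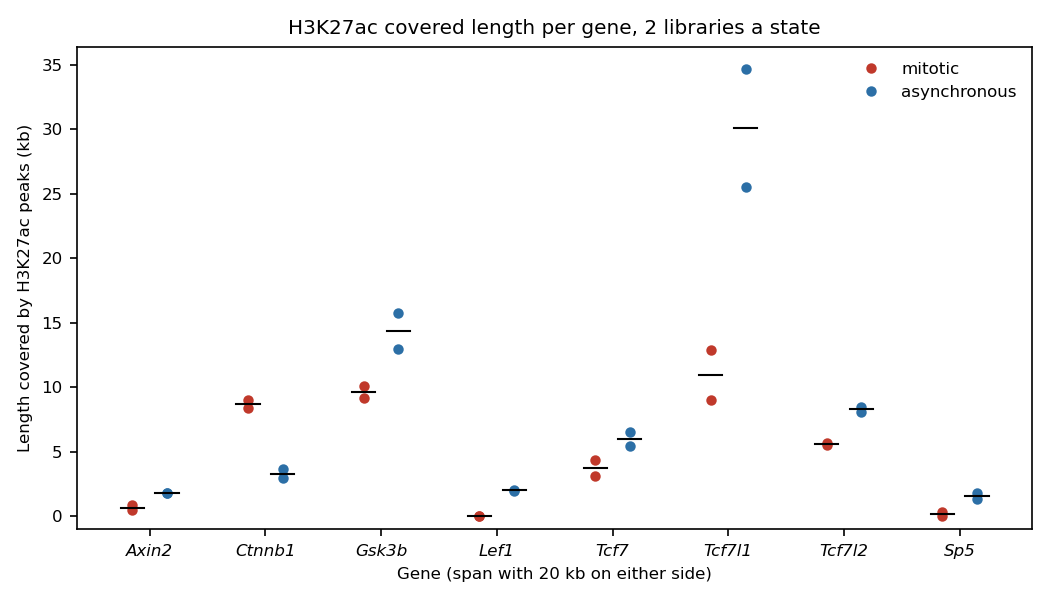
Length covered by H3K27ac peaks (kb) at each gene with 20 kb on either side, with 1 point per library, mitotic in red left of asynchronous in blue, and bars at the means of 2 libraries. Ctnnb1 is the gene whose mitotic points lie above its asynchronous points, and Lef1 is at 0 in both mitotic libraries.

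Overlap between antibodies at the 8 genes was largely between Klf4 and H3K27ac. Of 17 asynchronous Klf4 regions, 10 (58.8%) overlapped an asynchronous H3K27ac region, beside 70.6% of all. An Oct4 region was overlapped by 2 of the 17 (11.8%, beside 7.97%), and a Sox2 region by 1 (5.88%, beside 7.22%). Of 6 Oct4 regions 3 (50%) overlapped a Sox2 region, beside 35.2% of all, and of 5 Sox2 regions 3 (60%) overlapped an Oct4 region, beside 39.7%. The 3 shared places were the Tcf7l1 element, the Tcf7 upstream element and the Lef1 upstream element, so Oct4 and Sox2 met at Tcf and Lef genes, and at none of Axin2, Ctnnb1, Gsk3b, Tcf7l2 and Sp5. With 5 and 6 regions these shares are descriptions.

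The wider pathway was counted over 70 other genes, and a longer gene again takes in more peaks. Asynchronous Klf4 regions lay at 48 of them (68.6%, beside 50.6% of all genes), and 20 of the 48 had a kept one, beside 43.2%. Oct4 lay at 12 (17.1%, beside 13.6%), with a kept region at 3 of the 12, beside 24.4%. Sox2 lay at 9 (12.9%, beside 10.9%), with a kept region at 5 of the 9, beside 40.8%. H3K27ac lay at 59 (84.3%, beside 69.6%), with a kept region at 40 of the 59 (67.8%), below the 80.4% of all such genes.

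Among the genes of each class with an asynchronous Klf4 region, a kept one lay at 5 of 8 destruction complex and Dishevelled genes (Apc, Btrc, Csnk1a1, Dvl1 and Dvl2) and at 6 of 7 nuclear cofactors. Over all genes with an asynchronous Klf4 region the share was 43.2%, and class counts this small are descriptions. The cofactors included Bcl9, Bcl9l and Pygo2, which bridge β-catenin to transcription, and Tle1, a co-repressor of Tcf proteins. Tle2 and Tle4 also had a kept one, and Tle3 did not. A kept Klf4 region lay at 3 of 11 ligand and secretion genes (Porcn, Wnt3a and Wnt8a), 3 of 12 receptors and their regulators (Fzd5, Rnf43 and Znrf3), 2 of 4 inhibitors (Ctnnbip1 and Notum) and 1 of 6 targets (Tbx3). Kept Oct4 regions lay at Fzd5, Lgr5 and Tle1, and kept Sox2 regions at Fzd2, Lgr4, Tbx3, Tle1 and Wnt5b.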

How the data were processed

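ChIP-seq peak lists of 16 stem cell libraries were analysed. A Klf4 list from a mix with neural progenitors and 7 input samples were not analysed here. The submitters' processing notes name mm10, MACS2 2.1.1, Bowtie2 2.2.5, cutadapt 1.8.1 and deepTools 2.3.6, without the settings used. In the deposited lists, 1 per library, each peak's enrichment is a fold (ratio), and its p and q are −log10 values that the authors deposited. Every listed −log10 p was at least 5. There were no summits and no depths, so no interval rests on reads.

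Gene spans came from RefSeq (GRCm38.p6). Starts were the strand-aware ends of the spans, apart from the Axin2 start site inside its span. Exon and intron positions were not used here. Peaks were assigned by midpoint and merged at an overlap of at least 1 bp. State differences were tested with an exact two-sided permutation test over libraries. The merging, classing and assignment of peaks were first tested on simulated lists. Tables were made with pandas 2.3.3 and numpy 2.4.6 in Python 3.11.15, and figures with matplotlib 3.10.9. Exact Clopper-Pearson intervals (scipy 1.17.1) are given for the kept shares of Klf4 and H3K27ac regions, and other percentages carry none. Oct4 mitotic libraries are numbered as labelled, against the numbers in their peak names. The regions named are, per gene and antibody, the asynchronous region of highest mean fold, and each element with peaks in at least 6 of 12 factor libraries. Regions named beyond this (such as other promoter regions, and lost, intermediate, mitotic-only and upstream ones) were picked after their values were seen. Alternatives were a stricter q, a window of 5 kb, equal list lengths, a stricter overlap, a single title prefix, a replicate block and leaving out each library. The members and lists were chosen with earlier results of these data known.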

Additional observations from a re-analysis of the deposited data

How the results depend on the processing

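None of these designs allows a p below 0.1, so the p-values say nothing about stability. With lists of equal length the Klf4 difference was -1 and that of H3K27ac -0.5, in place of -14.7 and -20. The Sox2 difference was 0 as reported and had no direction to keep. The Oct4 difference changed sign without Oct4 mitotic library 1, at 1, and ranged from -5 to 1 as each mitotic library was left out. Leaving out 1 library at a time gave differences of -18.8 to -11.3 for Klf4, -1 to 1 for Sox2 and -26.5 to -13.5 for H3K27ac. Kept shares ranged from 11.8% to 27.3% for Klf4, from 16.7% to 50% for Oct4, from 60% to 100% for Sox2 and from 29.0% to 57.9% for H3K27ac, the highest without H3K27ac mitotic library 2. These ranges mix rules. Where a state was left with 1 library, a peak in it alone was enough, and for Klf4 both libraries left were needed. Leaving out an asynchronous H3K27ac library gave 54 or 62 asynchronous regions in place of 38. With a -log10 q of at least 5 the kept share of Klf4 was 0% (0 of 11), and with lists of equal length that of H3K27ac was 60% (15 of 25). Shares over all regions are not given for any of these settings, so the changes cannot be called particular to these genes. The causes were not tested. The single asynchronous Oct4 and Sox2 libraries could not be left out.

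A replicate block for H3K27ac gave the same difference of -20 with an exact permutation p of 0.5, the smallest that 2 pairs allow. Libraries with the same number did not deviate together (correlation 0.000758 over 17203 genes, 2 pairs). With 2 pairs this cannot decide whether the numbers pair them. Read depth is unknown, and its part in the counts was not tested.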

Other observations

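The genes outside the pathway whose profile over the 16 lists was most like the mean of the 8 genes were Nufip1 (Pearson r = 0.962), Mybpc2 (0.961) and Emc10 (0.961), among 8458 genes with a peak in at least 8 lists. The profile was the within-list percentile of a gene's strongest peak, set to 0 where it had none. Mybpc2 and Emc10 had the same value, and the points share antibodies and list lengths.

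The Klf4 list from the mixture that contained neural progenitors held 1 peak at the 8 genes, at Tcf7l2.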
